A study of Mus musculus with 48 samples.

Results

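Metallothioneins, the transcription factor that switches them on and the membrane carriers that move zinc were followed in lactating mice kept at 25 °C or 36 °C. The group held 8 genes named by symbol, of 58913 genes in the deposited files: Mt1, Mt2 and Mt3, Mtf1, the exporters Slc30a1, Slc30a2 and Slc30a4, and the importer Slc39a14. All 8 were matched by Ensembl identifier. They were chosen by gene name, with earlier results of these data known. The animals were timed-pregnancy ICR dams, an outbred laboratory strain with no engineered allele named in the labels, 10 weeks old and at day 13 of lactation. Control dams were held at 25 °C and heat dams at 36 °C in a climate incubator, both at 55% relative humidity, and were killed right after a treatment whose duration the labels do not give. From each treatment came 8 libraries of total RNA per tissue (hypothalamus, pituitary and the left inguinal, number 4, mammary gland), 48 in all, which the labels call biological replicates. The comparisons asked whether these genes differed between 36 °C and 25 °C in each tissue, whether that difference varied among tissues, and how their levels were ordered over the 3 tissues at 25 °C.

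Metallothioneins are small, cysteine-rich proteins that hold zinc and copper in thiolate clusters. In mice Mt1 and Mt2 are transcribed in most tissues and are textbook targets of zinc and cadmium, through the zinc-sensing factor MTF1, and of glucocorticoids, while Mt3 is best known from brain. Carriers of the SLC30 family move zinc out of the cytosol, across the plasma membrane or into vesicles, and carriers of the SLC39 family move it in. In the lactating mammary gland zinc is loaded into secretory vesicles for milk: SLC30A2 variants in women give zinc-poor milk, and the mouse mutation lethal milk disrupts Slc30a4.

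The coding sequences below, from GENCODE M21 on GRCm38, are shown to place the cysteine codons and to compare the 3 metallothionein genes. In each the codons for cysteine (tgc or tgt) are in capitals.
Mt1: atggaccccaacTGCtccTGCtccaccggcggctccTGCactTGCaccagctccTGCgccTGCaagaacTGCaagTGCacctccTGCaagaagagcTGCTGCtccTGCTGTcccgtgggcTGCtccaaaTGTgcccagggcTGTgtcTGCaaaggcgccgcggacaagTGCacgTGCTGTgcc
Mt2: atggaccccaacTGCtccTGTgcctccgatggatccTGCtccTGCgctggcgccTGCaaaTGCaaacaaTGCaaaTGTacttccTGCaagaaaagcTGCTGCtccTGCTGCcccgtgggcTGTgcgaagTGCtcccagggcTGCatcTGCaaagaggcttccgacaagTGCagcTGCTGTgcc
Mt3: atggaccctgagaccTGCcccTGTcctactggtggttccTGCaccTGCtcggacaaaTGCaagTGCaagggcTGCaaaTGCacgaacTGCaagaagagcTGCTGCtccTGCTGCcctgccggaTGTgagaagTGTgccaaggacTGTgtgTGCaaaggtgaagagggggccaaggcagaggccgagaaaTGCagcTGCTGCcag
Mt1 and Mt2 each have 61 codons before the stop, 20 of them for cysteine (32.8%), and Mt3 has 68 codons with 20 for cysteine (29.4%). Of the aligned coding bases 79.2% were identical between Mt1 and Mt2, 65.7% between Mt1 and Mt3 and 67.2% between Mt2 and Mt3. The handling of fragments with several alignments is not given in the sources used here. The genes lie on the plus strand of chromosome 8 in the order Mt3, Mt2, Mt1, with starts 20011 bases (Mt3 to Mt2) and 6471 bases (Mt2 to Mt1) apart, and each coding sequence is spread over 3 exons. Of the Mt2 exon bases 73.5% also belong to Gm45774, annotated on the other strand, and no strand setting is given, so fragments there cannot be assigned with certainty. No exon base of Mt1 or Mt3 is shared with another annotated gene.

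MTF1 binds metal response elements, whose core is TGCACNC or TGCGCNC, and the promoters of Mt1, Mt2 and Slc30a1, textbook MTF1 targets, are shown to place these letters. Each line is the RefSeq sequence on GRCm38.p6 from 250 bases before to 50 bases after the annotated start, with matches to the core on either strand in capitals; no matches overlapped.
Mt1 promoter, chr8:94178839-94179138, plus strand: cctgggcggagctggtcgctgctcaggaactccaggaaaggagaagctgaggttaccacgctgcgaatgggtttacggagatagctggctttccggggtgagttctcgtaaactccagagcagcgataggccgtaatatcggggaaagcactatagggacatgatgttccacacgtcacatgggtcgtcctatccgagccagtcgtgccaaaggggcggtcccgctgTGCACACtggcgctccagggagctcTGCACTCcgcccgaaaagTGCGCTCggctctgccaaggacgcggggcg
Mt2 promoter, chr8:94172368-94172667, plus strand: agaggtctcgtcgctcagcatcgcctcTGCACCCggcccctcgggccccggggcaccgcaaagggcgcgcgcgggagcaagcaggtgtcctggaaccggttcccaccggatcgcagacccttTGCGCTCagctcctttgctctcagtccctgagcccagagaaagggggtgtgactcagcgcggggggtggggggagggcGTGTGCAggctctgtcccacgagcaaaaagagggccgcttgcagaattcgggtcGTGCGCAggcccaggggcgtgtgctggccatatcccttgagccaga
Slc30a1 promoter, chr1:191906531-191906830, plus strand: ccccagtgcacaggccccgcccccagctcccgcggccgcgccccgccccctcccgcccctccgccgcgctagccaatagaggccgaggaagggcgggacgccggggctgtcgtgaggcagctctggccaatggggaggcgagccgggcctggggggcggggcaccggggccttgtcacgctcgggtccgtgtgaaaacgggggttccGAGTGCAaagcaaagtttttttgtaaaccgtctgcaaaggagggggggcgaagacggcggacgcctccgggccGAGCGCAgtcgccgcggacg
The Mt1 window held 3 matches, that of Mt2 4 and that of Slc30a1 2. RefSeq windows were found for 7 of the 8 genes: Mt3 held 1 match, Slc30a2 2, Slc30a4 3 and Mtf1 0. Of 32851 promoter windows of this length 25.7% held at least 1 match and 1.97% held 3 or more. The heat shock element, searched as 3 units of GAA and TTC in alternation (either order) with 2 free bases between units, was in 0 of the 7 windows and in 0.603% of all. The Mt1 and Mt2 windows end before the coding sequences, which start at 94179311 and 94172848, and the bases between were not searched. The counts thus hold for these windows and not for any start nearer the coding sequence. These are matches of letters in a short window and say nothing of binding.

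Values are FPKM as deposited, a unit that scales a gene's fragments by its exon length and by a divisor per library. Depth, recovered from the steps of the FPKM values, spanned 16272709 to 22166070 fragments in hypothalamus, and was lower in pituitary (10893063 to 17246514) and mammary gland (11586412 to 17809272). A count of 3 fragments for a 1 kb gene is worth 0.105 to 0.143 FPKM in the first of these tissues, 0.110 to 0.167 in the second and 0.322 to 0.600 in the third, a limit for counting error only. The divisor behind the FPKM was not the number of fragments on annotated genes: it was 1.26 to 1.39 times that number in hypothalamus, 1.41 to 1.73 times in pituitary and 0.358 to 0.572 times in mammary gland. Levels set side by side across tissues therefore rest on the authors' divisor, and each tissue difference below was also computed with the libraries scaled to their annotated fragments. That scaling, chosen after seeing the data, moved the median difference of all genes between mammary gland and hypothalamus from −0.11 to −1.19, between mammary gland and pituitary from −0.07 to −1.44 and between pituitary and hypothalamus from −0.05 to 0.22 (log2). Marker genes matched the tissue labels: in control libraries 8 neuron markers summed to 1591 to 3283 FPKM in hypothalamus, 9 anterior pituitary markers to 1181 to 1978 in pituitary and 8 secretory epithelium markers to 104660 to 199510 in mammary gland. Among heat libraries, secretory epithelium markers reached 62.5 FPKM in 1 hypothalamus library, where control libraries held at most 4.31. The anterior pituitary hormone genes Prl and Gh were nonetheless listed at medians of 20.5 and 12.3 FPKM in control pituitary, and Gapdh, used by every cell, at 4.51, 5.07 and 2.42 FPKM in control hypothalamus, pituitary and mammary gland. A low listed value is therefore given below as listed, and what set these low values was not tested. In bulk tissue, fewer cells of a type and less RNA per cell cannot be told apart.

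**Figure D1:**
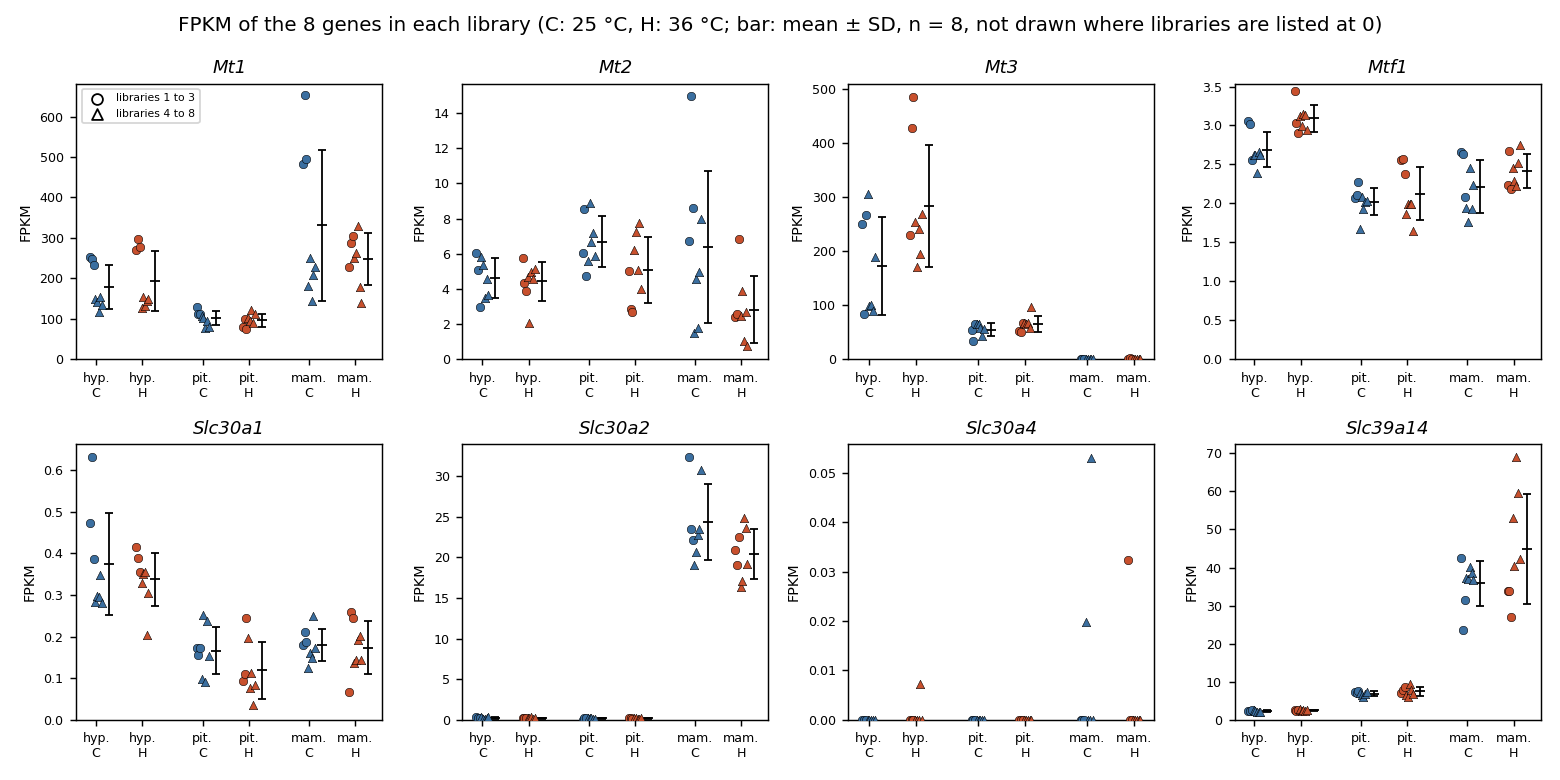
FPKM (y axis, linear, a separate scale per panel) of the 8 genes in each of the 48 libraries, by tissue (hyp., pit., mam.) and treatment (C at 25 °C in blue, H at 36 °C in red). Circles are libraries 1 to 3, triangles libraries 4 to 8, and bars the mean ± SD of 8, not drawn for Slc30a4 and mammary Mt3; Slc30a2 and Slc39a14 were high in mammary gland, Mt3 was high in hypothalamus, and Slc30a4 stayed under 0.06 FPKM throughout.

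Levels at 25 °C separated some of the genes by tissue. Slc30a2 and Slc39a14 were highest in mammary gland and Mt3 in hypothalamus under each scaling run, whereas the order of tissues for Mt1, Mt2 and Mtf1 depended on the scaling. Of the 6 genes that reached a mean of 1 FPKM over the 24 control libraries, 4 passed the limma test between pituitary and hypothalamus (adjusted p under 0.05), 1 higher and 3 lower in pituitary. Of all genes tested 73.1% passed there, 32.3% higher and 40.8% lower. Between mammary gland and hypothalamus 5 of 6 passed, 3 higher and 2 lower in mammary gland, against 83.9% of all genes (38.2% higher, 45.7% lower). Between mammary gland and pituitary 4 of 6 passed, 3 higher and 1 lower, against 80.7% (37.2% higher, 43.5% lower). Most genes differ between these tissues, so the counts are read as near the background. With libraries scaled to annotated fragments 3, 6 and 5 of the 6 passed in these contrasts, against 78.0%, 90.0% and 93.7% of all genes.

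Mt1 (ENSMUSG00000031765) was abundant in every library. Control libraries ranged from 118 to 251 FPKM in hypothalamus (median 151), from 76.7 to 128 in pituitary (median 105) and from 144 to 653 in mammary gland (median 240). The hypothalamus and pituitary ranges overlapped slightly and the mammary range lay above that of pituitary. On the log2(FPKM + 1) scale, pituitary was below hypothalamus by a difference of −0.78 ± 0.26 (SE, adjusted p = 0.00840) and mammary gland above pituitary by 1.54 ± 0.26 (adjusted p = 5.9e-06). Mammary gland was above hypothalamus by 0.76 ± 0.26 (adjusted p = 0.00850), but with quantile normalization this difference was −0.09 with adjusted p = 0.661, and with libraries scaled to annotated fragments it was −0.79 and passed in the other direction (adjusted p = 0.00126). Mammary gland against pituitary was 0.46 (adjusted p = 0.0315) under quantile normalization and −0.37 (adjusted p = 0.0984) scaled to annotated fragments, and pituitary against hypothalamus −0.42 (adjusted p = 0.0746) in the latter. The order of the tissues for Mt1 is thus not settled by these files.

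Mt2 (ENSMUSG00000031762) was listed far lower than its neighbour. Its control libraries ranged from 2.98 to 6.04 FPKM in hypothalamus (median 4.83), from 4.74 to 8.88 in pituitary (median 6.37) and from 1.47 to 14.97 in mammary gland (median 5.83). The 3 ranges overlapped. None of the 3 tissue differences passed (0.45, 0.19 and −0.26 for pituitary minus hypothalamus, mammary minus hypothalamus and mammary minus pituitary, adjusted p = 0.140, 0.514 and 0.383), although the first was 0.69 with adjusted p = 0.0150 under quantile normalization. Scaled to annotated fragments all 3 passed, at 0.80, −1.03 and −1.83 (adjusted p = 0.00153, 8.1e-05 and 1.2e-08), the second with its sign turned. The ratio of Mt1 to Mt2 FPKM had medians of 35.2 in hypothalamus, 13.3 in pituitary and 56.2 in mammary gland at 25 °C. Because Mt2 shares most of its exon bases with Gm45774, which itself was listed at control medians of 0.132, 0.364 and 0.0853 FPKM, this ratio compares listed values; being taken within a library, it does not depend on the scaling.

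Mt3 (ENSMUSG00000031760), the brain metallothionein, spanned the widest range among tissues. In control hypothalamus it ran from 83.1 to 305 FPKM (median 145) and in control pituitary from 33.1 to 65.6 (median 56.8). In control mammary gland it was listed at 0 in 4 of 8 libraries and reached 0.548 FPKM, or 3 fragments, in the highest. The groups did not overlap. Pituitary differed from hypothalamus by −1.50 ± 0.24 (SE, adjusted p = 5.2e-06). The fitted mammary differences of −7.06 against hypothalamus and −5.57 against pituitary depend on the added 1 and were −9.61 and −8.09 with 0.1 added. In the same tissues 8 neuron markers summed to 0.0322 to 0.553 FPKM in control mammary gland, with 3 of the 8 at 0 in every library. In control pituitary they summed to 51.8 to 150 FPKM. The 8 astrocyte markers summed to 37.6 to 64.1 FPKM in control mammary gland and to 8.79 to 23.5 in control pituitary. For 7 oligodendrocyte markers the sums were 63.9 to 103 and 9.34 to 14.9 FPKM. These lists were thus higher in mammary gland than in pituitary, unlike Mt3. The part of any cell type in the Mt3 order was not tested.

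Mtf1 (ENSMUSG00000028890, chromosome 4), whose product senses zinc and activates metallothionein genes, was listed low in each tissue. Control libraries ranged from 2.38 to 3.05 FPKM in hypothalamus (median 2.62), from 1.67 to 2.27 in pituitary (median 2.05) and from 1.75 to 2.65 in mammary gland (median 2.16). The hypothalamus range lay above that of pituitary and overlapped that of mammary gland. Pituitary was below hypothalamus by a difference of −0.30 ± 0.06 (SE, adjusted p = 1.6e-04). Mammary gland differed from hypothalamus by −0.20 (adjusted p = 0.00471), a sign that turned to 0.16 (adjusted p = 0.0290) under quantile normalization, and from pituitary by 0.09 (adjusted p = 0.170), which became 0.40 and passed (adjusted p = 5.5e-06). The median difference of all genes between mammary gland and hypothalamus was −0.11, and 0.11 after quantile normalization. Scaled to annotated fragments Mtf1 was lower in mammary gland than in hypothalamus by a difference of −1.19 and than in pituitary by −1.14 (adjusted p = 2.0e-16 and 4.5e-16), and the pituitary minus hypothalamus difference no longer passed (−0.05, adjusted p = 0.472).

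Among the exporters only Slc30a2 was listed at an appreciable level. Slc30a2 (ENSMUSG00000028836, chromosome 4), which loads zinc into vesicles of the mammary secretory cell, ran from 19.0 to 32.3 FPKM in control mammary gland (median 23.1). In control hypothalamus it stayed between 0.0913 and 0.392 FPKM and in control pituitary between 0.0230 and 0.247. Every mammary library lay far above every library of the other tissues. The log2 difference was 4.37 ± 0.09 (SE) against hypothalamus and 4.43 ± 0.09 against pituitary (adjusted p = 3.0e-24 and 4.9e-24), and 6.30 and 6.58 with 0.1 in place of 1 added. Scaled to annotated fragments it was 3.19 and 3.21 and still passed. The pituitary minus hypothalamus difference, −0.07 ± 0.09, did not pass (adjusted p = 0.503).

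Slc30a1 (ENSMUSG00000037434, chromosome 1), the plasma membrane exporter and a classical MTF1 target, was listed below 1 FPKM in each library. Control libraries held 0.281 to 0.632 FPKM in hypothalamus (36 to 73 fragments), 0.0916 to 0.251 in pituitary (11 to 34 fragments) and 0.124 to 0.250 in mammary gland (5 to 9 fragments). It stayed under the filter of 1 FPKM in all fits. Slc30a4 (ENSMUSG00000005802, chromosome 2), the vesicular exporter lost in lethal milk mice, was listed at 0 in 44 of the 48 libraries. The other 4 held 1 or 2 fragments, the highest a control mammary library at 0.0532 FPKM. At its exon length of 5482 bases, 3 fragments correspond to 0.0588 to 0.110 FPKM in mammary gland, which sets the level that a listed 0 allows there. Since genes used by every cell were also listed very low, this is reported as a listed value and not as absence of the transcript.

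Slc39a14 (ENSMUSG00000022094, chromosome 14), an importer of zinc, manganese and non-transferrin iron, was higher in each tissue of this order than in the one before. Control libraries ranged from 2.07 to 2.52 FPKM in hypothalamus (median 2.34), from 5.87 to 7.58 in pituitary (median 7.00) and from 23.6 to 42.6 in mammary gland (median 37.1). The 3 ranges were separate. Pituitary exceeded hypothalamus by 1.25 ± 0.08 (SE, adjusted p = 1.1e-12), and mammary gland exceeded hypothalamus by 3.47 ± 0.08 (adjusted p = 2.0e-22) and pituitary by 2.22 ± 0.08 (adjusted p = 4.9e-18). Scaled to annotated fragments these differences were 1.65, 2.07 and 0.43, and each passed (highest adjusted p = 7.7e-04).

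**Figure D2:**
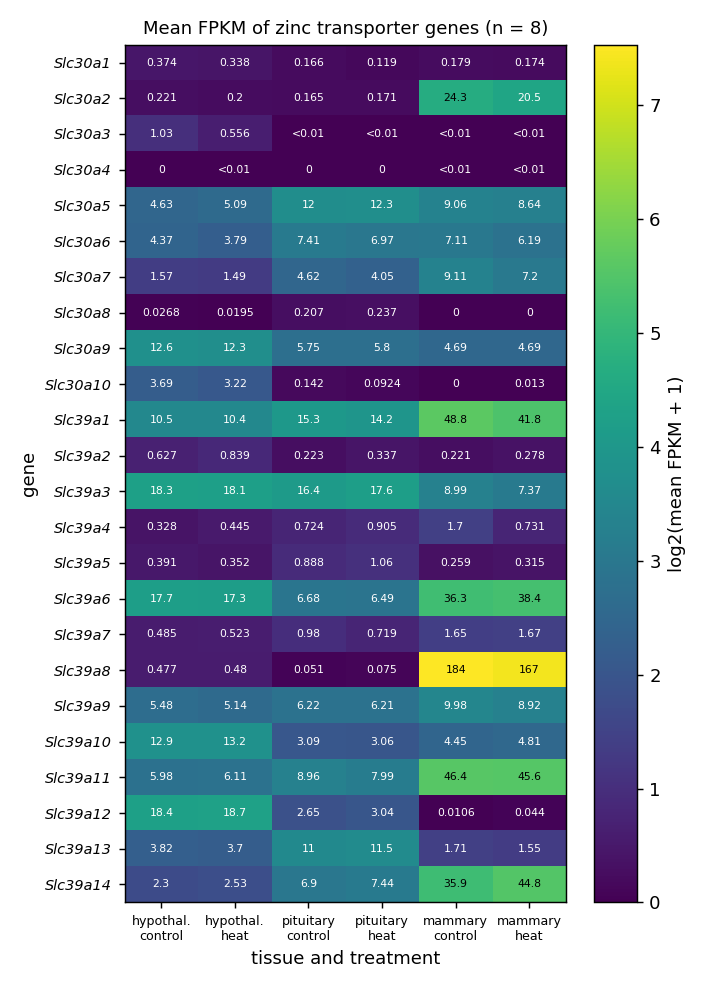
Mean FPKM of the 24 SLC30 and SLC39 genes listed (rows) by tissue and treatment (columns, 8 libraries each), printed in each cell and coloured by log2(mean FPKM + 1). The mammary columns are led by Slc39a8 at 184 FPKM in control, and Slc39a12 is highest in hypothalamus at 18.4.

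The rest of both zinc carrier families was read beside these genes. Since directions between tissues move with the scaling, the families are given by level. Slc39a8, a zinc and manganese importer, was the most abundant carrier of the 24 in mammary gland, at 184 ± 42.7 FPKM in control against 0.477 ± 0.114 in hypothalamus and 0.0510 ± 0.0252 in pituitary (SD, n = 8). It exceeded hypothalamus by 6.94 and pituitary by 7.43 on the log2(FPKM + 1) scale (adjusted p = 1.7e-26 and 9.2e-27). Slc39a12, an importer known from brain, showed the opposite order, with 18.4 ± 3.74 FPKM in control hypothalamus (SD, n = 8) and a mammary minus hypothalamus difference of −4.25 (adjusted p = 3.3e-23). These 2 were named after their values were seen.

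The comparison of 36 °C with 25 °C asked whether this system responded to heat. None of the 5 genes tested in each tissue passed the adjusted limma threshold of 0.05. In hypothalamus 0 of 5 passed where 0.681% of all genes did (0.559% higher, 0.122% lower). In pituitary it was 0 of 5 against 3.79% (2.37% higher, 1.42% lower), and in mammary gland 0 of 5 against 5.31% (2.84% higher, 2.47% lower). Unadjusted limma p-values were under 0.05 for 3 of the 5 in hypothalamus (Mt3, Mtf1 and Slc39a14), where 8.75% of all genes were, for 0 in pituitary (16.6% of all genes) and for 1 in mammary gland (Mt2; 21.5%). Limma-voom on the recovered fragments also passed 0 of 5 in each tissue. For each of the 8 genes in each tissue the control and heat ranges overlapped. For Slc30a4, listed at 0 in 44 of the 48 libraries, this was bound to be so. The share of all genes with overlapping ranges was not counted, so the overlap is a description only.

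**Figure D3:**
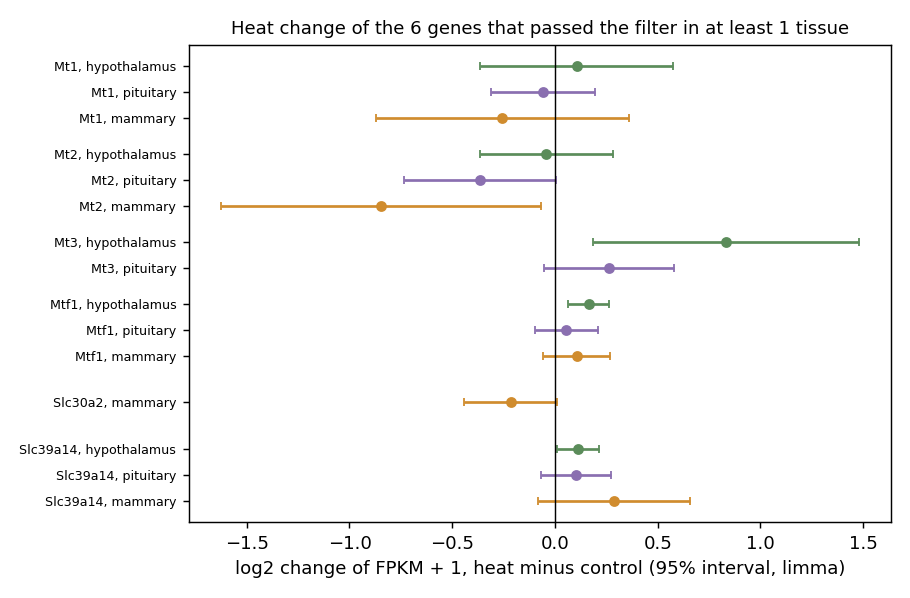
Log2 change of FPKM + 1, heat minus control (x axis), with its 95% interval from limma, for each gene and tissue that passed the filter of 1 FPKM, coloured by tissue. The most positive value is Mt3 in hypothalamus at 0.83 and the most negative Mt2 in mammary gland at −0.85, and neither passed after adjustment.

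Mt1 gave changes near 0 in hypothalamus and pituitary. Heat hypothalamus libraries ranged from 126 to 296 FPKM (median 151), a change of 0.11 ± 0.22 (SE, adjusted p = 0.999), and heat pituitary libraries from 74.4 to 121 (median 96.2), a change of −0.06 ± 0.12 (adjusted p = 0.855). In heat mammary gland it ranged from 138 to 329 FPKM (median 257), a change of −0.26 ± 0.29 (adjusted p = 0.670). The 95% interval of the mammary change ran from −0.87 to 0.36.

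Mt2 lay lower in heat in most mammary and pituitary libraries. Heat mammary libraries ranged from 0.731 to 6.81 FPKM (median 2.51, 3 to 28 fragments), with 7 of 8 below the control median, a change of −0.85 ± 0.37 (SE, adjusted p = 0.189). Heat pituitary libraries ranged from 2.65 to 7.73 FPKM (median 5.03), with 6 of 8 below the control median and a change of −0.37 ± 0.18 (adjusted p = 0.310). The summed level of 8 intermediate and posterior lobe markers in pituitary ran from 2176 to 42909 FPKM in control (median 28465) and from 6635 to 100320 in heat (median 46706), and with their mean level as a covariate the Mt2 difference was −0.46 (adjusted p = 0.146). In hypothalamus, where heat libraries held 2.04 to 5.76 FPKM (median 4.62), the difference was −0.04 ± 0.15 (adjusted p = 0.999). When all 48 libraries shared 1 estimate of the spread, the mammary change was −0.86 and passed (adjusted p = 0.0227), in a fit that called 13.7% of all genes for heat in that tissue. The ratio of Mt1 to Mt2 in heat mammary gland had a median of 98.9.

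Mt3 had the largest heat difference in hypothalamus among the 8 genes. Heat libraries ran from 169 to 485 FPKM (median 248), and 8 of 8 lay above the control median of 145, although 3 control libraries exceeded the heat median. The mean was 284 ± 112 FPKM against 172 ± 91.2 (SD, n = 8), a change of 0.83 ± 0.31 (SE, 95% interval 0.18 to 1.48, adjusted p = 0.351). Over the alternatives run its adjusted p lay between 0.124 and 0.718. The 8 astrocyte markers summed to 271 to 350 FPKM in control and 280 to 391 in heat, and with their mean level as a covariate the change was 0.81 (adjusted p = 0.197). The 8 neuron markers summed to 1591 to 3283 FPKM in control and 1647 to 4195 in heat; their part in the Mt3 difference was not tested. In pituitary the change was 0.26 ± 0.15 (adjusted p = 0.399), with heat libraries at 49.9 to 96.9 FPKM (median 65.1). Neuron markers in pituitary summed to 51.8 to 150 FPKM in control (median 109) and 46.7 to 324 in heat (median 194), and their part in it was not tested. In heat mammary gland 4 of 8 libraries were listed at 0 and the highest at 1.99 FPKM, or 14 fragments. Neuron markers summed to 0 to 5.58 FPKM in these libraries.

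Mtf1 was higher in heat by a narrow margin in hypothalamus. Heat libraries ranged from 2.91 to 3.45 FPKM (median 3.07), with 8 of 8 above the control median, and the change was 0.16 ± 0.05 (SE, adjusted p = 0.144). It passed with a term for libraries 1 to 3 against 4 to 8 (0.16, adjusted p = 0.0394) and in libraries 4 to 8 alone (0.19, adjusted p = 0.0444), fits that called 3.48% and 3.00% of all genes, and over the alternatives run its adjusted p lay between 0.0394 and 0.774. Heat libraries held 1.65 to 2.57 FPKM in pituitary (median 1.99) and 2.18 to 2.75 in mammary gland (median 2.37). The changes there were 0.05 ± 0.07 (adjusted p = 0.767) and 0.11 ± 0.08 (adjusted p = 0.454), the second with 8 of 8 heat libraries above the control median.

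Slc30a2 in heat mammary gland ranged from 16.3 to 24.8 FPKM (median 20.1), with 6 of 8 libraries below the control median. Its mean was 20.5 ± 3.06 FPKM against 24.3 ± 4.70 in control (SD, n = 8), a change of −0.22 ± 0.11 (SE, 95% interval −0.44 to 0.01, adjusted p = 0.256). With all 48 libraries in 1 fit the change was −0.23 and passed (adjusted p = 0.0425). Secretory epithelium markers summed to 104660 to 199510 FPKM in control and 107790 to 164890 in heat; their part in the change was not tested. Slc30a1 in heated hypothalamus held 0.203 to 0.416 FPKM, heated pituitary 0.0355 to 0.244 and heated mammary gland 0.0677 to 0.260, and without the filter its changes were −0.03, −0.06 and −0.01 (adjusted p = 0.946, 0.641 and 0.962).

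Slc39a14 in heat mammary gland spread from 27.0 to 69.0 FPKM (median 41.4), a change of 0.29 ± 0.18 (SE, adjusted p = 0.362). The top 3 heat libraries lay above every control library and the bottom 3 below the control median. In the same gland the summed level of 10 lymphocyte markers ran from 3.89 to 75.0 FPKM in control (median 4.00) and from 3.64 to 113 in heat (median 33.8). With their mean level as a covariate the Slc39a14 change was 0.15 (adjusted p = 0.726). Heat libraries held 2.34 to 2.83 FPKM in hypothalamus (median 2.51) and 5.96 to 9.28 in pituitary (median 7.35), with changes of 0.11 ± 0.05 (adjusted p = 0.473) and 0.10 ± 0.08 (adjusted p = 0.580).

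The difference in heat change among the 3 tissues was tested directly in 1 fit of the 48 libraries. None of the 6 genes tested passed the F test, at adjusted p of 0.461 (Slc30a2), 0.541 (Mt2 and Mt3), 0.882 (Slc39a14), 0.883 (Mtf1) and 0.919 (Mt1), where 2.12% of all genes passed. Slc30a2 was listed at no more than 0.392 FPKM in hypothalamus and 0.261 in pituitary, and Mt3 at 0 in 8 libraries, all mammary. With 1 added before the log2, heat changes of such low values are understated, which limits the test for Slc30a2 and Mt3. Thus the hypothalamic Mt3 value and the mammary Mt2 value are not shown to differ from the other tissues.

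Libraries numbered 1 to 3 differed from those numbered 4 to 8, and Mt1 took part in this. What the numbers stand for is not given in the labels. The cut between 3 and 4 was chosen with earlier results of these data known, so its p-values are descriptive. In a fit with treatment and this term, Mt1 was higher in libraries 1 to 3 by 0.90 ± 0.06 in hypothalamus (SE, adjusted p = 4.5e-08, where 62.4% of all genes passed) and by 0.84 ± 0.22 in mammary gland (adjusted p = 0.0339, where 7.57% passed). In pituitary the Mt1 difference was 0.05 (adjusted p = 0.768, where 54.3% passed), while Mtf1 was higher in libraries 1 to 3 by 0.20 (adjusted p = 0.00471). Slc39a14 was lower in libraries 1 to 3 of mammary gland, with a difference of −0.50 ± 0.14 (adjusted p = 0.0359).

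In hypothalamus the Mt1 libraries 1 to 3 held 233 to 251 FPKM in control and 271 to 296 in heat, and libraries 4 to 8 held 118 to 154 and 126 to 154. Control and heat did not overlap in the first set and did in the second. The difference between the library numbers thus exceeded any difference between treatments. In pituitary libraries 1 to 3 held 112 to 128 FPKM in control and 74.4 to 98.0 in heat, which did not overlap, and libraries 4 to 8 held 76.7 to 107 and 90.3 to 121, which did. In mammary gland libraries 1 to 3 held 484 to 653 FPKM in control and 229 to 306 in heat, which did not overlap. Libraries 4 to 8 held 144 to 251 and 138 to 329, which did. The share of all genes that separate with 3 libraries per group was not counted, so these separations are a description only. Their direction also differed, with heat above control in hypothalamus and below it in pituitary and mammary gland. Within libraries 1 to 3 the mammary Mt1 change was −0.98 ± 0.18 (SE, n = 3 per group, limma adjusted p = 0.183) and within 4 to 8 it was 0.17 ± 0.24 (n = 5 per group, limma adjusted p = 0.722). With 3 libraries per group limma called 0 of 12308 genes, with 1507 at an unadjusted p under 0.05. The difference between the 2 mammary changes, −1.15 ± 0.35, had an adjusted p of 0.449, and 0% of all genes passed that test. In pituitary the Mt1 change was −0.49 within libraries 1 to 3 and 0.18 within 4 to 8 (adjusted p = 0.302 and 0.323, limma), a difference of −0.66 ± 0.19 (adjusted p = 0.322). Slc39a14 in mammary gland changed by −0.01 within libraries 1 to 3 and by 0.46 within 4 to 8 (limma adjusted p = 0.988 and 0.0891). Lymphocyte marker sums in libraries 1 to 3 were at most 4.77 FPKM in heated and 4.18 in control gland. In libraries 4 to 8 they reached 113 FPKM in heated and 75.0 in control gland. Their part in the difference between the Slc39a14 changes was not tested. Mt2 kept its sign within both sets of mammary libraries (−1.21 and −0.64), as did Mt3 in hypothalamus (1.05 and 0.70).

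**Figure D4:**
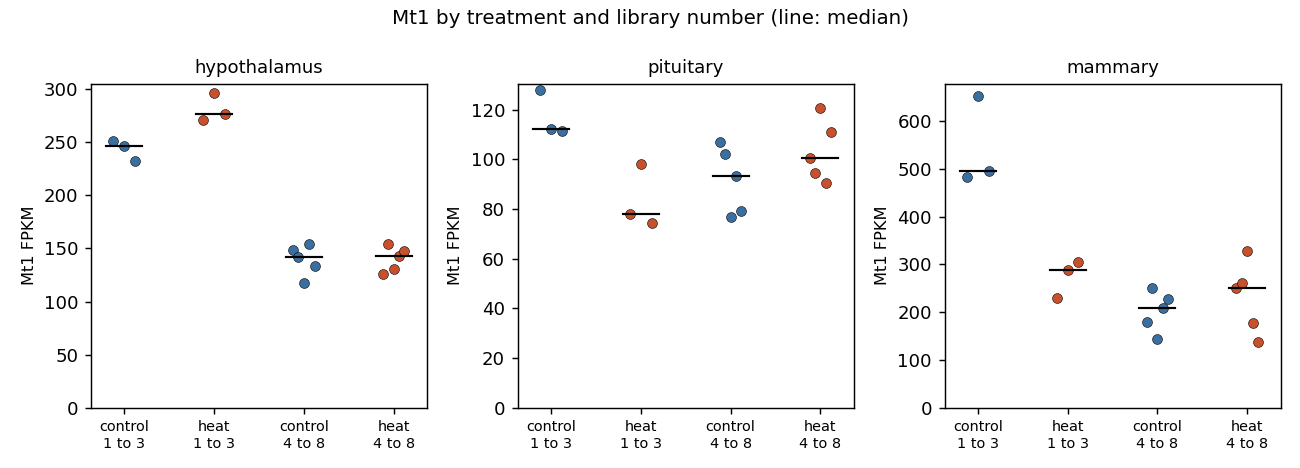
Mt1 FPKM (y axis, linear from 0) in each library of the 3 tissues, split by treatment and by library number 1 to 3 or 4 to 8 (x axis), with lines at the medians. In hypothalamus libraries 1 to 3 start at 233 FPKM and libraries 4 to 8 end at 154 over both treatments, and in mammary gland the 3 control libraries numbered 1 to 3 stand above the others.

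No other zinc carrier passed the test of heat against control. Of the 24 SLC30 and SLC39 genes, 14 were tested in hypothalamus, 13 in pituitary and 16 in mammary gland, and 0 passed in each (3, 0 and 3 at an unadjusted p under 0.05 by limma, beside 8.75%, 16.6% and 21.5% of all genes). Their median changes were −0.01, −0.01 and −0.08, beside 0.00281, 0.00450 and −0.00963 over all genes tested. In the SLC30 family the smallest adjusted p belonged to Slc30a10, a manganese exporter, in hypothalamus (−0.14, adjusted p = 0.276) and to Slc30a7, a carrier of the secretory pathway, in pituitary (−0.16, 0.572) and mammary gland (−0.30, 0.153). In the SLC39 family it belonged to Slc39a14 in hypothalamus, Slc39a3 in pituitary (0.12, 0.503) and Slc39a1 in mammary gland (−0.22, 0.159). Mt4, the metallothionein of stratified epithelia, held at most 4 fragments in any library and was not tested.

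Other targets ascribed to MTF1 gave 2 calls, in opposite directions, and both in mammary gland. Of 8 tested there, Hmox1, the heme oxygenase gene, rose and Ndrg1, a stress and hypoxia responsive gene, fell. Of all genes tested in mammary gland 5.31% passed, 2.84% higher and 2.47% lower. Hmox1 ranged from 1.61 to 5.99 FPKM in control (median 3.86) and from 4.41 to 11.1 in heat (median 7.07), a change of 0.83 ± 0.20 (SE, adjusted p = 0.0243). Ndrg1 ranged from 80.5 to 190 FPKM in control (median 128) and from 52.3 to 121 in heat (median 59.5), a change of −0.90 ± 0.20 (adjusted p = 0.0159). In both the ranges overlapped, and 8 of 8 heat libraries lay on 1 side of the control median. None of 9 passed in hypothalamus (smallest adjusted p 0.719, Hmox1) and none of 8 in pituitary (0.525, Ndrg1).

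Among 14 genes of copper and iron handling, 1 of 11 tested in pituitary passed, where 3.79% of all genes did. A single call among so few genes is not read as a result about the list. Tfrc, the transferrin receptor gene, fell there from a control range of 3.00 to 4.57 FPKM (median 3.66) to 2.04 to 3.03 in heat (median 2.54), a change of −0.42 ± 0.09 (SE, adjusted p = 0.0111). None of 10 passed in hypothalamus, where Tfrc had the smallest adjusted p (−0.36, 0.322), and none of 13 in mammary gland, where the copper importer Slc31a1 did (−0.35, 0.208).

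Targets of glucocorticoids, which induce mouse Mt1 and Mt2, and heat shock genes were counted in the same libraries. Of 12 glucocorticoid targets tested, 3 rose in hypothalamus (Zbtb16, Errfi1 and Tsc22d3), 3 in pituitary (Ddit4, Pdk4 and Zbtb16) and 5 in mammary gland (led by Tsc22d3, Ddit4, Fkbp5 and Sult1a1), and 0 fell in each. Of 10 heat shock genes 6, 10 and 10 rose and 0 fell. Of all genes tested 0.559%, 2.37% and 2.84% rose in these tissues and 0.122%, 1.42% and 2.47% fell. Both lists were fixed with earlier results of these data known. The metallothionein genes tested beside them, 3 in hypothalamus, 3 in pituitary and 2 in mammary gland, gave 0 calls, which so few genes would also give at the shares of all genes printed above.

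Among the genes whose levels followed Mt1 most closely across the 48 libraries, after removing the mean of each tissue and treatment group, were Rpl19 (r = 0.80), Eif1 (0.80), Mrpl52 (0.80) and Tpt1 (0.78), of 9680 genes. Mt2 ranked 898 in this list, with r = 0.51 and a rank correlation of 0.35. For Mt2 the closest were Aig1 (r = 0.55), Atp6v0e (0.54), Nfib (0.53), Ampd3 (0.52) and Ctsb (0.51), with Mt1 at rank 10. For Slc30a2, over the 16 mammary libraries and 12585 genes, they were Vti1b (r = 0.85), Tgoln1 (0.83), Spint1 (0.80), Nat8f1 (0.80) and Fam160b1 (0.80). These correlations are descriptions without a test, the libraries share their depth and the difference between numbers 1 to 3 and 4 to 8.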

How the data were processed

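RNA sequencing libraries of hypothalamus, pituitary and mammary gland, 8 per tissue and treatment, took their groups from the sample titles. FPKM values, the unit of every file, were computed and deposited by the authors. The submitters' processing notes name HISAT2 2.0.5, featureCounts 1.5.0-p3 and DESeq2 1.16.1 and the build mm9, whereas GENCODE M21 (GRCm38) exon lengths account for the steps of the deposited FPKM. Those lengths turned 94.7 to 97.0% of the low values (under 50 fragments) into whole fragments, to a tolerance of 0.02, and so gave the depths. The authors' divisor per library is not given in the sources used here. Of 58913 genes 53360 had a symbol; 5553 identifiers outside the annotation were tested where they passed the filter but not named. No libraries held identical values.

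Within each tissue median-ratio scaling was applied (factors 0.970 to 1.017) and genes averaging at least 1 FPKM entered limma 3.58.1 (R 4.3.3) as log2(FPKM + 1) (empirical Bayes with trend, 2-sided, Benjamini-Hochberg over all genes, threshold 0.05). Log2 changes are on that scale and understate changes of low genes. Tissue differences used the 24 control libraries, and the heat by tissue F test all 48. Figures were drawn with matplotlib 3.10.9 under Python 3.11.15. The 8 genes, lists, tests and alternatives were chosen with earlier results of these data known. Named besides the 8 were, per list and tissue, the up to 4 passing genes of smallest adjusted p, or the 1 of smallest adjusted p where none passed, and the 5 genes most correlated with Mt1, Mt2 and Slc30a2, leaving out unnamed and predicted genes. For Mt1, 1 of these 5 is not reported here. Slc39a8 and Slc39a12 were named after their values were seen. On simulated data limma recovered 94, 94 and 90% of changes of 1 log2 unit in hypothalamus (13959 genes), pituitary (14094) and mammary gland (12586), and 74, 65 and 45% of changes of 0.5. The simulated noise was independent between genes and left out the difference between library numbers. These shares are averages over genes drawn at random. They do not give the power for the 8 genes, some of which had wide standard errors.

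Same-numbered control libraries of different tissues deviated together, with correlations of 0.124 to 0.627 in every pair. The difference between library numbers described above could also give such values. Correlations between differently numbered libraries are not given, so whether the numbers pair tissues is not settled. The tissue differences reported above were fitted without pairing, and the block by number was run only as an alternative. The labels do not tie a number to a dam.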

Additional observations from a re-analysis of the deposited data

Results flagged for a closer look

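Of 30 groups of 8 libraries tested for a library far from the others, 2 held one, where chance alone gives about 1 in 20. Heat pituitary library 8 held Mt3 at 96.9 FPKM, and its gap to the next library was 0.632 of the group's range. Heat hypothalamus library 1 held Mtf1 at 3.45 FPKM, with a gap of 0.552 of the range. No call on either gene depended on these libraries.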

How the results depend on the processing

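Counts of the 8 genes called kept within 1.5 times in all 168 fits with a library left out, and all 960 single values of these genes kept their side of the threshold. Of 76 such counts under other settings 73 did so. The exceptions were hypothalamus, with 1 called with a term for libraries 1 to 3 against 4 to 8 (3.48% of all genes called) and 1 in libraries 4 to 8 alone (3.00%), Mtf1 in both, and mammary gland, with 2 called in 1 fit of all 48 libraries (13.7% of all genes), Mt2 and Slc30a2. Quantile normalization reversed mammary against hypothalamus for Mt1 (−0.092) and Mtf1 (0.158). Scaling to annotated fragments, chosen after seeing the data, reversed it for Mt1 (−0.789) and Mt2 (−1.03), and mammary against pituitary for Mt1 (−0.370) and Mtf1 (−1.14). The cause was not tested.

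Counts over all genes moved more than those of the 8. With a library left out, heat called 46 to 126 genes in hypothalamus (95 with all), 334 to 903 in pituitary (534), 415 to 752 in mammary gland (668) and 275 to 488 differing among tissues (316). The term for library numbers gave 486, 1720 and 916 genes in the 3 tissues, and libraries 1 to 3 alone gave 0 in each (946, 1622 and 1507 at an unadjusted p under 0.05).

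Replicate numbers were not taken to pair control with heat libraries. Same-number correlations ran from 0.0649 to 0.697 in hypothalamus, from −0.0205 to 0.504 in pituitary and from −0.0992 to 0.336 in mammary gland. In these tissues 2, 1 and 2 of 8 control libraries correlated best with the heat library of their own number. With the replicate block 281, 1213 and 634 of all genes passed in the 3 tissues and 0 of the 8. The block by treatment and number (consensus correlation 0.215) passed 763 genes in the heat by tissue test and 0 of the 8, and the block by number in control passed 4, 5 and 4 of the 8, as many as without it.

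Depth limits Mt2 in mammary gland (3 to 48 fragments), Slc30a1 and Slc30a4. The filter of 5 leaves Mtf1 untested, and in single heat fits also Mt2 (hypothalamus and mammary gland) and Slc39a14 (hypothalamus).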
